A study of Drosophila melanogaster with 12 samples.

Results

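Drosophila eye discs were profiled on arrays, and 42 genes of the Polycomb group, the trithorax group and heterochromatin were looked up by symbol in the authors' deposited table of 13281 genes. The table lists 37 of them, which fall into 10 groups by complex or activity. The other 5 names, escl, calypso, Utx, Trl and G9a, do not appear there as symbols and were left out of all counts. Of these, calypso and Utx correspond by RefSeq's gene table to the entries CG8445 and CG5640. CG8445 stood at log2 -0.28 for miR-11 alone, -0.02 for dE2F1/dDP and 0.06 for all 3 transgenes in the authors' deposited table, and CG5640 at 0.14, 0.38 and 0.26.

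Polycomb group proteins keep developmental genes such as the Hox genes silent in cells where they were never switched on. Polycomb repressive complex 2 (PRC2) methylates lysine residues of histone H3, and Polycomb repressive complex 1 (PRC1) reads that mark and ubiquitinates histone H2A. Trithorax group proteins act against them by methylating other lysines and by remodelling nucleosomes, and in the developing eye both groups are known for controlling proliferation and cell fate. Heterochromatin proteins write and read a separate mark of H3 and keep repeats and genes placed near them silent.

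The arrays hold RNA of larval eye discs, the epithelium from which the adult eye forms, from 4 genotypes with 3 biological replicates each. GMR-Gal4/UAS-miR-11 expressed the microRNA miR-11, and GMR-Gal4/+; UAS-dE2F1,UAS-dDP/+ expressed the transcription factor subunits dE2F1 and dDP. The genotype with all 3 transgenes combined UAS-miR-11 over GMR-Gal4 with UAS-dE2F1,UAS-dDP/+. GMR-Gal4/+ was the control and carried the driver alone, which all genotypes share. This driver is known to act in the differentiating cells behind the morphogenetic furrow, while RNA of the cells ahead of it was part of the sample. dE2F1 and dDP together form an activator of cell cycle genes. Larvae were at the third instar and were raised at 25 degrees Celsius.

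The values below are average log2 fold changes over the control in the authors' deposited table, which gives no value per array, so members have no SD, no n and no level here. The table also gives a rank product p-value for each direction and a pfp, the share of false calls estimated for a list that ends at that gene. A gene is called at a pfp under 0.05. The p-value quoted is that of the direction of the fold change and is unadjusted. The transgene check was Dp, the gene of dDP, at log2 2.85 with dE2F1/dDP and 2.73 with all 3 transgenes in the authors' deposited table. The other transgene's own gene, E2f, was not called and stood at log2 0.34 with dE2F1/dDP (p = 0.175, pfp = 1.01) and 0.33 with all 3 transgenes (p = 0.138, pfp = 0.9) in the authors' deposited table.

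Arrays of 1 genotype lay far apart. The first principal component of the 12 arrays held 63.1% of the variance, and its scores ran from -30.1 to 1.7 with all 3 transgenes, -49.9 to 34.4 with dE2F1/dDP, -34 to 83.3 with miR-11 and -9.3 to 49.8 in the control. Of 18769 probe sets on the arrays, limma called 17 with all 3 transgenes (0.0426% higher and 0.048% lower), 12 with dE2F1/dDP (0.032% higher and 0.032% lower) and 29 with miR-11 (0.0959% higher and 0.0586% lower) against the control, at a Benjamini-Hochberg adjusted p under 0.05. Because the probe sets carry no gene names, no member could be read on single arrays or without an array that stands apart.

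No member was called in any of the 3 comparisons by the authors' rank product, at a background of 0.309% of all genes called higher and 0.143% lower with miR-11, 0.136% and 0.211% with dE2F1/dDP, and 0.233% and 0.617% with all 3 transgenes. The smallest pfp of a member in the authors' deposited table was 0.326, for E(bx) with all 3 transgenes. The members nonetheless lay to one side of all genes with dE2F1/dDP. There 32 of 37 had a log2 fold change above 0 (42.9% of all genes) and 5 below 0 (56.3%) in the authors' deposited table, and the median was 0.33 against -0.03 over all genes. At least log2 0.5 was reached by 15 members, against 7.67% of all genes. At an unadjusted p under 0.05, 14 members were higher and 0 lower, where 6.03% and 6.85% of all genes were.

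With all 3 transgenes the shift had the same sign. Of the members 30 of 37 were above 0 (44.1% of all genes) and 7 below 0 (55.3%) in the authors' deposited table, with a median of 0.31 against -0.03. At least log2 0.5 was reached by 7 members, against 5.77% of all genes. At an unadjusted p under 0.05, 8 members were higher and 1 lower, where 7.4% and 7.08% of all genes were. With miR-11 alone the members lay on the other side of 0. Of the 37, 30 were below 0 (56.3% of all genes) and 6 above 0 (43.0%) in the authors' deposited table, Sin3A was listed at 0, and the median was -0.14 against -0.03. At an unadjusted p under 0.05, 0 were higher and 3 lower (trr, Iswi and Mi-2), where 3.52% and 3.41% of all genes were, and 2 were at or below log2 -0.5 (trr and Su(var)3-7), where 2.03% of all genes were. The 3 comparisons use the same control arrays, so these shifts are not independent of each other.

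**Figure D1:**
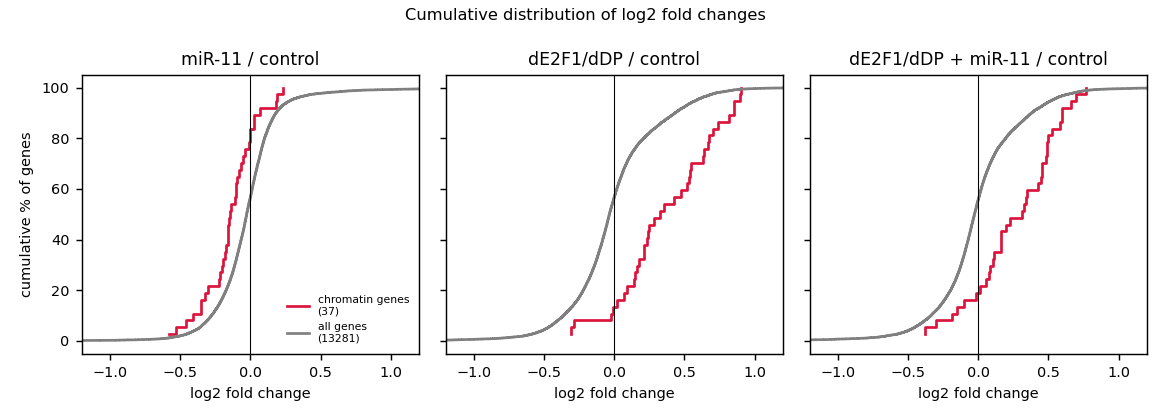
Cumulative share of genes (percent, vertical axis) by log2 fold change over the control (horizontal axis, cropped at -1.2 and 1.2) in the authors' deposited table, for the 37 chromatin genes (red) and all 13281 genes (grey). The red curve lies right of the grey one for most of its length with dE2F1/dDP and with all 3 transgenes, where its medians are 0.33 and 0.31, and left of it with miR-11 alone, where its median is -0.14.

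PRC1 was the largest complex, with 7 members. With dE2F1/dDP 6 of the 7 stood above 0 (median log2 0.36), where 42.9% of all genes did. At an unadjusted p under 0.05, 2 of the 7 were higher, where 6.03% of all genes were. For all 3 transgenes 5 of the 7 stood above 0 (44.1% of all genes) and the median was 0.08. With miR-11 alone 1 of the 7 did (43.0% of all genes), with a median of -0.10. Of the 2 higher with dE2F1/dDP, 1 was ph-p, FBgn0004861, which encodes a subunit that polymerises through its SAM domain. It stood at log2 0.70 with dE2F1/dDP (p = 0.0148, pfp = 0.543) and 0.50 with all 3 transgenes (p = 0.0412) in the authors' deposited table. The other was Scm, FBgn0003334, a further SAM domain protein, at log2 0.67 (p = 0.0358, pfp = 0.684) and 0.66 (p = 0.015, pfp = 0.451) in the same genotypes of the authors' deposited table. Pc, whose chromodomain binds methylated H3, was at 0.47 and 0.33 in the authors' deposited table (p = 0.104 and 0.129).

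Sce, FBgn0003330, lay below 0 with dE2F1/dDP, where the other 6 genes of PRC1 lay above 0. It encodes RING1, the subunit that ubiquitinates H2A. Sce stood at log2 -0.31 with dE2F1/dDP (p = 0.122), -0.38 with all 3 transgenes (p = 0.0378, pfp = 0.687) and -0.16 with miR-11 (p = 0.229) in the authors' deposited table. It was the only member (2.7%) lower at an unadjusted p under 0.05 with all 3 transgenes, where 7.08% of all genes were. In that genotype 7.98% of all genes had a lower value than Sce.

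Both pairs of neighbouring PRC1 paralogs were compared. In RefSeq's gene order ph-d and ph-p are adjacent, and 1 protein-coding gene lies between Psc and Su(z)2. The nearly identical ph-d stood at 0.24 with dE2F1/dDP (p = 0.252) and 0.08 with all 3 transgenes (p = 0.456) in the authors' deposited table, below the 0.70 and 0.50 of ph-p, and probes for so close a copy may share signal. Psc and Su(z)2 encode related RING finger subunits. Psc was at 0.29 with dE2F1/dDP (p = 0.246) and -0.15 with all 3 transgenes (p = 0.229), and Su(z)2 at 0.36 (p = 0.137) and 0.05 (p = 0.362) in the authors' deposited table. In both pairs the values of both genes were lower with all 3 transgenes than with dE2F1/dDP. The same held for all 7 genes of PRC1, where it held for 50.1% of all genes.

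PRC2 had 4 members in the table, all above 0 with dE2F1/dDP (median log2 0.35) and with all 3 transgenes (median 0.32). There 42.9% and 44.1% of all genes were above 0. The leading one was Pcl, FBgn0003044, an accessory subunit that stimulates methylation by PRC2. Pcl stood at log2 0.89, a 1.86-fold value, with dE2F1/dDP (p = 0.006, pfp = 0.457) and at 0.58 with all 3 transgenes (p = 0.0299, pfp = 0.565) in the authors' deposited table, above 99.3% and 96.4% of all genes. Of the core subunits, Su(z)12 was at 0.54 and 0.48 in the same genotypes of the authors' deposited table (p = 0.0672 and 0.0747). E(z), the methyltransferase itself, was at 0.16 and 0.16 (p = 0.344 and 0.381), and esc, the WD40 subunit that binds the mark, at 0.09 and 0.16 (p = 0.376 and 0.233) in the authors' deposited table. The paralog of esc, escl, is not analysed here.

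The DNA-binding proteins of the Polycomb group include a pair of paralogs, phol and pho. phol, FBgn0035997, was at log2 0.63 with dE2F1/dDP (p = 0.0401, pfp = 0.714) and 0.45 with all 3 transgenes (p = 0.0589) in the authors' deposited table. Its paralog pho, a zinc finger protein related to mammalian YY1 like phol, was at 0.21 (p = 0.219) and -0.10 (p = 0.447), with 0.07 for miR-11 alone (p = 0.376), in the authors' deposited table. Sfmbt, FBgn0032475, the MBT domain partner of Pho, was at 0.64 (p = 0.0342) and 0.52 (p = 0.0518) in the authors' deposited table. Asx, FBgn0000142, the partner of the H2A deubiquitinase Calypso, was at 0.68 with dE2F1/dDP (p = 0.0296, pfp = 0.66) and 0.43 with all 3 transgenes (p = 0.0622) in the authors' deposited table. Differences between paralogs within a genotype have no test here.

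Among the histone methyltransferases of the trithorax group, trx, FBgn0003862, the founding H3 methyltransferase of the group, stood at log2 0.82 with dE2F1/dDP (p = 0.0046, pfp = 0.427) and 0.49 with all 3 transgenes (p = 0.0275, pfp = 0.549) in the authors' deposited table. trr, FBgn0023518, its relative that acts at enhancers, was at 0.42 (p = 0.022, pfp = 0.621) and 0.60 (p = 0.0259, pfp = 0.54) in the authors' deposited table. With miR-11 alone trr had the lowest value of all members, log2 -0.58 (p = 0.0054, pfp = 0.894) in the authors' deposited table, where 1.2% of all genes were lower. For miR-11 trx was at -0.04 in the authors' deposited table. The remaining 3 genes of this class lay closer to 0 with dE2F1/dDP and with all 3 transgenes. ash1, another H3 methyltransferase, was at 0.17 and 0.02, ash2, a subunit shared by methyltransferase complexes, at -0.02 and -0.01, and Hcf, a cofactor of several chromatin complexes, at 0.25 and 0.11 in the authors' deposited table. With miR-11 alone Hcf was at 0.19 (p = 0.269) and ash2 at -0.30 (p = 0.21) in the authors' deposited table.

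The Brahma remodelling complex was uneven. osa, which marks 1 form of the complex, was at log2 0.53 with dE2F1/dDP (p = 0.0702) and 0.49 with all 3 transgenes (p = 0.0559) in the authors' deposited table, and at 0.18 with miR-11 (p = 0.22). The ATPase gene brm was at 0.33 and 0.34 in the authors' deposited table, and the scaffold gene mor at 0.15 and 0.16. With miR-11 brm was at -0.33 (p = 0.0972) and mor at -0.35 (p = 0.124) in the authors' deposited table. Snr1, the SNF5 subunit, was at -0.28 with dE2F1/dDP (p = 0.145), -0.30 with all 3 transgenes (p = 0.103) and -0.14 with miR-11 (p = 0.226) in the authors' deposited table. None of the 4 passed an unadjusted p of 0.05 in any comparison, where 3.41% to 7.4% of all genes did, by comparison and direction. kis, FBgn0086902, a trithorax group remodeller of the CHD family, was at 0.74 with dE2F1/dDP (p = 0.0211, pfp = 0.613) and 0.45 with all 3 transgenes (p = 0.0643) in the authors' deposited table.

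The 4 heterochromatin members stayed closest to 0 of the groups with dE2F1/dDP, with a median of log2 0.04. The wider list of 21 other heterochromatin genes, described below, had a median of 0.28 there. The gene of HP1a, FBgn0003607, whose protein binds H3 methylated by Su(var)3-9, was at -0.01 with dE2F1/dDP and 0.10 with all 3 transgenes in the authors' deposited table (p = 0.674 and 0.395). The methyltransferase gene Su(var)3-9 was at 0.02 (p = 0.566) and -0.19 (p = 0.251), and egg, a methyltransferase of the same residue, at 0.07 and 0.09 in the authors' deposited table. Su(var)3-7, a zinc finger partner of HP1a, was at 0.14 and 0.23 in the same genotypes, and with miR-11 alone had the second lowest value of the members, log2 -0.53 (p = 0.0504, pfp = 1.5) in the authors' deposited table. None of the 4 passed an unadjusted p of 0.05 in any comparison, where 3.41% to 7.4% of all genes did, by comparison and direction.

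The subunits of the NURF remodeller lay furthest apart of all complexes with dE2F1/dDP and with all 3 transgenes. E(bx), FBgn0000541, which encodes the largest NURF subunit, had the highest value of all members in each comparison. It stood at log2 0.90, a 1.87-fold value, with dE2F1/dDP (p = 0.0043, pfp = 0.409), 0.77 with all 3 transgenes (p = 0.0046, pfp = 0.326) and 0.23 with miR-11 (p = 0.107) in the authors' deposited table. Nurf-38, FBgn0016687, the subunit that is also an inorganic pyrophosphatase, had the lowest value of all members with dE2F1/dDP, log2 -0.31 (p = 0.147, pfp = 1.05), and shared the lowest with Sce with all 3 transgenes, -0.38 (p = 0.0604, pfp = 0.777), in the authors' deposited table. Iswi, FBgn0011604, the ATPase of NURF and other remodellers, was at 0.54 with dE2F1/dDP (p = 0.0331, pfp = 0.666), 0.70 with all 3 transgenes (p = 0.0106, pfp = 0.418) and -0.35 with miR-11 (p = 0.0407, pfp = 1.48) in the authors' deposited table.

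All 5 genes of the deacetylase and related group were above 0 with dE2F1/dDP (median log2 0.52) and with all 3 transgenes (median 0.35). There 42.9% and 44.1% of all genes were above 0. The wider list of 29 other remodellers and deacetylases, described below, had medians of 0.01 and -0.06 in these genotypes. lid, FBgn0031759, an H3 demethylase, stood at 0.85 (p = 0.0036, pfp = 0.38) and 0.60 (p = 0.0345, pfp = 0.588) in the authors' deposited table. Sin3A, FBgn0022764, the scaffold of a deacetylase corepressor, was at 0.85 with dE2F1/dDP (p = 0.0056, pfp = 0.447) and 0.35 with all 3 transgenes (p = 0.152) in the authors' deposited table. dom, an ATPase that exchanges histone variants, was at 0.52 (p = 0.0475) and 0.46 (p = 0.0731) in the authors' deposited table. The deacetylase gene Rpd3 was at 0.21 and 0.20 in these genotypes and at -0.46 with miR-11 (p = 0.0849, pfp = 1.46) in the authors' deposited table. Mi-2, the ATPase of the NuRD complex, was at 0.24 and 0.31, and at -0.41 with miR-11 (p = 0.049, pfp = 1.5) in the authors' deposited table.

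**Figure D2:**
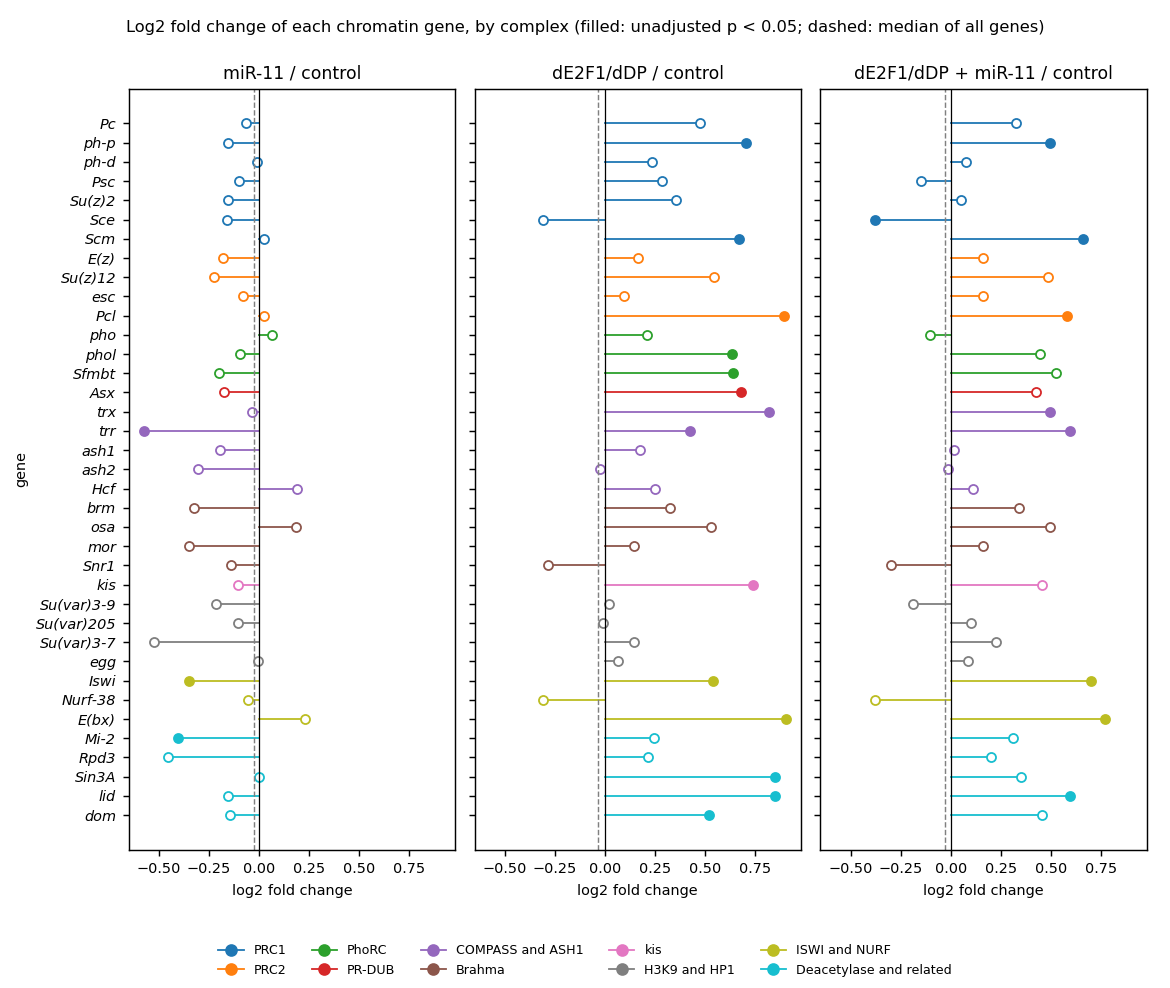
Log2 fold change over the control (horizontal axes) of each of the 37 genes (rows, coloured by complex) for miR-11 alone, dE2F1/dDP and all 3 transgenes, from the authors' deposited table. Filled points have an unadjusted p under 0.05 in the direction of the fold change, and dashed lines mark the median of all genes. Filled points number 3, 14 and 9, and Sce, ash2, Snr1 and Nurf-38 lie left of 0 in all 3 panels.

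A gene with low p-values in both directions ranked high in some pairs of arrays and low in others. With miR-11, 3 members had both p-values under 0.25, against 3.4% of all genes. They were lid (p = 0.0967 for higher and 0.0679 for lower), trx (p = 0.156 and 0.161) and ph-p (p = 0.25 and 0.129) in the authors' deposited table. No member met that limit with dE2F1/dDP or with all 3 transgenes, where 1.01% and 0.61% of all genes did. The limit was chosen after seeing the data.

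Differences of the table's fold changes give 2 further comparisons, each of which shares no array with 1 of the first ones. They share the arrays of all 3 transgenes with each other. All 3 transgenes over miR-11 repeats the addition of dE2F1/dDP in discs that express miR-11, on 6 other arrays than dE2F1/dDP over the control. In that comparison 31 of 37 members were above 0 (47.1% of all genes) and 6 below 0 (52.4%), with a median of log2 0.51 against -0.01, and 19 reached at least 0.5 (10.3% of all genes). In both comparisons at once 29 of 37 members were above 0, where 30.4% of all genes were. Of these 21 reached at least 0.2 in both, where 14.9% of all genes did, and 13 at least 0.5 in both, where 3.86% did. Those 13 were ph-p, Scm, Su(z)12, Pcl, phol, Sfmbt, Asx, trx, kis, Iswi, E(bx), lid and dom. Below 0 in both were 3 members, where 39.8% of all genes were, and these were Sce (-0.31 and -0.22), Snr1 (-0.28 and -0.16) and Nurf-38 (-0.31 and -0.33), as computed from the authors' deposited table.

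The order of the members was only partly shared between these comparisons. Across the 37 genes Pearson's r was 0.63 and Spearman's rho 0.58, against 0.59 and 0.64 across all genes. Genes are not independent replicates, and within each comparison they share its arrays. The largest differences for all 3 transgenes over miR-11 were those of trr (1.17) and Iswi (1.05), both of them low with miR-11 alone. The arrays' first component also ran the same way in both comparisons, averaging -16.1 ± 16.2 (SD, n = 3) with all 3 transgenes against 23.3 ± 58.7 with miR-11, and -20.1 ± 47.3 with dE2F1/dDP against 12.9 ± 32.2 in the control. Its highest and lowest scores, 83.3 and -49.9, belonged to the arrays with the lowest and the highest upper quartile of log2 values. These were 7.71 in miR-11 replicate 3 and 8.28 in dE2F1/dDP replicate 1. The part of the component, or of this spread between arrays, in the members' shift was not tested.

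The addition of miR-11 could be set side by side in the same way. All 3 transgenes over dE2F1/dDP had 27 of 37 members below 0 (50.1% of all genes) and 10 above 0 (48.8%), with a median of log2 -0.07. Only Sin3A was at or below -0.5 (-0.50), where 1.08% of all genes were. Next lowest were Psc (-0.44) and trx (-0.32), and the highest difference was that of trr (0.17), as computed from the authors' deposited table. Below 0 both there and with miR-11 over the control were 20 of 37 members, where 29.3% of all genes were, and 0 were above 0 in both, where 22.2% of all genes were. Of the 4 members lowest with miR-11 alone, trr (0.17), Su(var)3-7 (0.08) and Mi-2 (0.07) were above 0 for all 3 transgenes over dE2F1/dDP and Rpd3 was at -0.01, as computed from the authors' deposited table. Across the 37 genes r was -0.48 and rho -0.47, against 0.08 and 0.06 across all genes. No difference between transgenic genotypes has a test per gene.

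**Figure D3:**
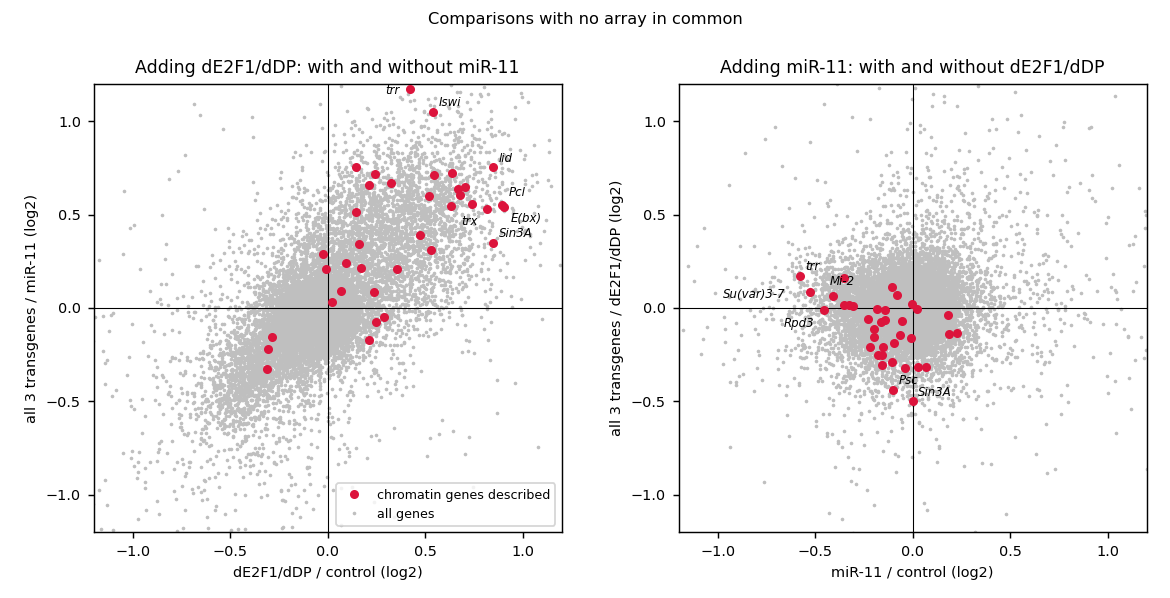
Log2 differences between genotypes in comparisons that share no array, computed from the authors' deposited table, for the 37 chromatin genes (red) and all genes (grey), with axes cropped at -1.2 and 1.2. On the left, addition of dE2F1/dDP to control discs (horizontal) and to miR-11 discs (vertical) puts 29 of 37 red points at upper right. On the right, addition of miR-11 to control discs (horizontal) and to dE2F1/dDP discs (vertical) puts 20 of 37 at lower left and 0 at upper right.

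The response to all 3 transgenes was also set against the sum of the 2 single responses. The members' median departure from that sum was log2 0.01, with 19 of 37 above 0 (55.3% of all genes) and 18 below 0 (44.5%). Departures of at least 0.5 belonged to trr (0.75), Su(var)3-7 (0.61) and Iswi (0.51), which is 3 of 37 against 4.13% of all genes, and Sin3A lay at -0.50, where 3.26% of all genes were at or below -0.5. Each departure equals the difference of all 3 transgenes over dE2F1/dDP minus the value with miR-11 alone. For trr, Su(var)3-7 and Iswi that difference was 0.17, 0.08 and 0.16, and the miR-11 value was -0.58, -0.53 and -0.35. Most of each of these 3 departures is thus the value with miR-11 alone. The departures are computed from the authors' deposited table and have no test.

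Further chromatin genes were read from wider lists that do not include the 37. Their counts stand against the same shares of all genes, which were 42.9% above 0, 6.03% higher and 6.85% lower at an unadjusted p under 0.05 with dE2F1/dDP, 44.1%, 7.4% and 7.08% with all 3 transgenes, and 43.0%, 3.52% and 3.41% with miR-11. In the list of other Polycomb group genes 13 of 14 were above 0 with dE2F1/dDP, and 6 were higher and 0 lower at an unadjusted p under 0.05. Dsp1, an HMG box protein, stood at log2 0.90 (p = 0.0058), sbb, a nuclear protein gene, at 0.86 (p = 0.0096) and psq, a BTB domain DNA-binding protein gene, at 0.81 (p = 0.0096) in the authors' deposited table. With all 3 transgenes 12 of 14 were above 0, and 4 were higher and 0 lower at that limit, led by lolal, a small BTB domain protein gene, at 0.80 (p = 0.0027) and the zinc finger gene crol at 0.82 (p = 0.0032) in the authors' deposited table. With miR-11 6 of 14 were above 0, and 0 were higher and 1 lower at that limit, mxc, a gene of the histone locus body, at -0.57 (p = 0.0432) in the authors' deposited table.

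In the list of other trithorax and Brahma genes 16 of 21 were above 0 with dE2F1/dDP, and 7 were higher and 0 lower at an unadjusted p under 0.05. The insulator protein gene Cp190 was at log2 0.91 (p = 0.0028), tna at 0.80 (p = 0.0093) and Mnn1, the menin gene, at 0.84 (p = 0.0096) in the authors' deposited table. With all 3 transgenes 17 of 21 were above 0, and 3 were higher and 0 lower at that limit. Among them Cp190 was at 0.69 (p = 0.0129) and nej, the acetyltransferase CBP, at 0.67 (p = 0.018) in the authors' deposited table, and lolal stands in this list as well. With miR-11 4 of 21 were above 0, and 1 was lower at that limit, the Mediator gene kto at -0.34 (p = 0.0457) in the authors' deposited table.

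Other remodellers and deacetylases had 15 of 29 genes above 0 with dE2F1/dDP and a median of log2 0.01, and 5 were higher and 1 lower at an unadjusted p under 0.05. Its genes named here are partners or subunits of ISWI complexes. Acf1, the partner of ISWI in the ACF and CHRAC remodellers, was at 0.86 with dE2F1/dDP (p = 0.0077), 0.74 with all 3 transgenes (p = 0.0074) and -0.96 with miR-11 (p = 0.0014, pfp = 0.423) in the authors' deposited table. tou was at 0.96 (p = 0.0006, pfp = 0.2), 0.78 (p = 0.0049) and -0.29 (p = 0.0086) in the same genotypes of the authors' deposited table. With miR-11 the p-value of tou for higher was also low, at 0.0719. Chrac-16, a histone fold subunit of CHRAC, was at -0.61 (p = 0.0113), -0.42 (p = 0.0498) and -0.28 (p = 0.0482) in the authors' deposited table. With all 3 transgenes the median of the list was log2 -0.06, and 2 of its genes were higher and 1 lower at that limit. With miR-11 0 were higher and 3 lower.

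The list of other heterochromatin genes held the only chromatin gene called. pr-set7, FBgn0011474, the histone H4 methyltransferase whose level is tied to the cell cycle, rose by log2 1.77 with dE2F1/dDP (pfp = 0.0122) and 1.69 with all 3 transgenes (pfp = 0.0029) according to the authors' deposited table, where miR-11 alone gave 0.78 (p = 0.0032, pfp = 0.363, not called). Of the list 16 of 21 genes were above 0 with dE2F1/dDP (median log2 0.28), pr-set7 included, and 15 of 21 with all 3 transgenes (median 0.29). At an unadjusted p under 0.05, 5 were higher and 1 lower with dE2F1/dDP, 6 higher and 0 lower with all 3 transgenes, and 1 higher and 1 lower with miR-11. The lower one with miR-11 was gpp, the H3 methyltransferase of the Dot1 family, at -0.25 (p = 0.026) in the authors' deposited table. The p-value of gpp for higher was also low there, at 0.0937.

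Hox and other genes held silent by Polycomb proteins in many tissues were read as well. Of 16 such genes 9 were above 0 with dE2F1/dDP and 9 with all 3 transgenes, where 42.9% and 44.1% of all genes were, and the medians were log2 0.04 in both. Dll stands in this list and also among the antennal disc markers below. Without levels, which of the 16 were silent in these discs cannot be told. With dE2F1/dDP 2 were higher and 0 lower at an unadjusted p under 0.05, where 6.03% and 6.85% of all genes were. They were the head Hox genes lab at 0.66 (p = 0.0211) and Dfd at 0.70 (p = 0.0288) in the authors' deposited table. With all 3 transgenes the signal gene wg was at 0.60 (p = 0.0173) and inv, the paralog of engrailed, at -0.48 (p = 0.0123) in the authors' deposited table. With miR-11 6 of 16 were above 0, where 43.0% of all genes were. At that limit 0 were higher and 0 lower, where 3.52% and 3.41% of all genes were.

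Other gene lists were read beside the chromatin genes. With dE2F1/dDP, where 42.9% of all genes were above 0, 9 of 10 eye disc markers were (median log2 0.47). So were 5 of 5 antennal disc markers (median 0.49) and 12 of 12 cell cycle genes (median 0.30). The exception was sev, a receptor tyrosine kinase gene of photoreceptor fate, at -0.69 with dE2F1/dDP (p = 0.0024), -0.62 with all 3 transgenes (p = 0.0018) and -0.60 with miR-11 (p = 0.0123) in the authors' deposited table. With all 3 transgenes the medians of these lists were 0.34, 0.35 and 0.42, and with miR-11 alone -0.04, -0.07 and -0.19. Cytosolic ribosomal protein genes, used by every cell, had a median of -0.03 with dE2F1/dDP (21 of 67 above 0), -0.05 with all 3 transgenes and -0.02 with miR-11. Salivary gland markers had medians of 1.60 for miR-11 alone (0.06 to 2.23), 1.2 for dE2F1/dDP (-1.35 to 1.91) and -1.52 for all 3 transgenes (-1.93 to -0.28). With dE2F1/dDP ng3 (-1.35) and ng1 (-0.79) went against the other salivary gland markers. Fat body markers had medians of 1.06, -0.29 (-1.19 to 0.74) and -0.22 in the same order. Muscle markers, read from 7 genes, had a median of 0.80 with all 3 transgenes (0.51 to 1.36), which exceeds the 0.31 of the chromatin genes, and medians of 0.17 with dE2F1/dDP and 0.11 with miR-11. Medians in the order miR-11, dE2F1/dDP and all 3 transgenes were 0.38, 0.22 and 0.03 for hemocyte markers, -0.28, -0.01 and 0.11 for glia markers, and 0.03, 0.06 and 0.06 for germline markers. The part of these tissues and of the disc markers in the chromatin genes' values was not tested. In whole discs, a larger share of cells that express a gene and more RNA of it per cell cannot be told apart.

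**Figure D4:**
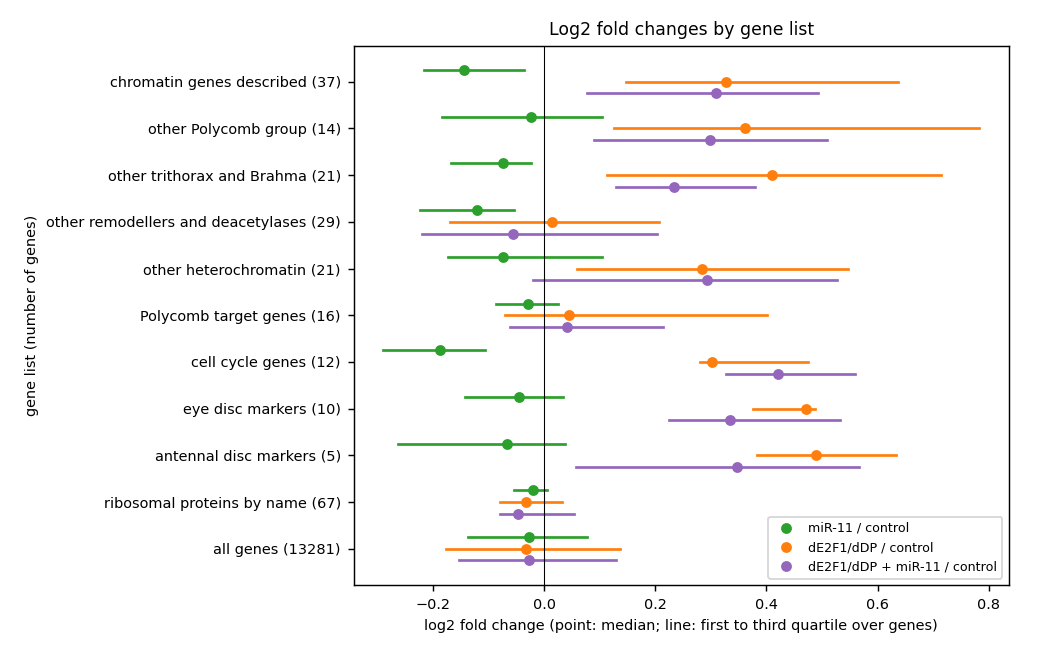
Median (point) and the first to the third quartile over genes (line) of the log2 fold change over the control (horizontal axis) for each gene list (rows, number of genes in brackets) with miR-11 (green), dE2F1/dDP (orange) and all 3 transgenes (purple), from the authors' deposited table. With dE2F1/dDP the chromatin genes (median 0.33) lie with the eye disc (0.47), antennal (0.49) and cell cycle (0.30) lists, and the Polycomb target genes (0.04) lie near all genes (-0.03).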

How the data were processed

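RNA of 4 genotypes, 3 biological replicates each (100 ng per array, per the labels' protocols), was measured on Affymetrix arrays. Array values are log2 expression per probe set as deposited, made with affy (version not given), per the submitters' processing notes. Normalization is not given in the sources used here. A separate deposited table holds the authors' log2 fold changes and rank product p-values (per the file headers) and the pfp, a score that can exceed 1, per the authors' note. For 100.0% of the 301 genes whose log2 change reached 1 in either direction, some probe set matched each of the 3 fold changes to 0.01. Probe sets were not named.

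Members were found by symbol, and members and lists were chosen with earlier results of these data known. Every member is named, with full values for the 4 largest rises and falls in each comparison, paralog pairs and called genes. From each wider list up to 4 called genes are named, or the genes with the smallest p. The gene sev was named after its values were seen. The ribosomal protein list was added after seeing the data. 1 listed gene on several rows, grh, was left out.

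limma 3.58.1 (R 4.3.3, lmFit and eBayes, two-sided) was fitted to 18769 probe sets on 12 arrays with genotype as the only term, after 183 control probe sets were removed, and was tested on simulated data. Array means were 5.96 to 6.02 and upper quartiles 7.71 to 8.28, and the number of arrays limits the precision. Tables were read with Python 3.11.15. RefSeq names are of the Release 6 assembly.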

Additional observations from a re-analysis of the deposited data

How the results depend on the processing

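The 0 calls among members held at a pfp under 0.15 and with Benjamini-Hochberg adjustment of the doubled smaller p over all genes, in all 3 comparisons. At an unadjusted p under 0.01 the 14 higher members with dE2F1/dDP became 5, the 8 higher and 1 lower with all 3 transgenes became 1 and 0, and the 3 lower with miR-11 became 1. The members' medians kept their sign as means, after subtraction of the median of all genes and without ph-d. The 29 members above 0 in both comparisons that add dE2F1/dDP were 31 after that subtraction and 21 at a limit of 0.2. They were 22 of 30 without the members with the 4 largest rises over the control with dE2F1/dDP or with all 3 transgenes. These settings were chosen after seeing the data. limma's 29 probe sets with miR-11 and 12 with dE2F1/dDP became 10 and 4 on the 6 arrays compared. Leaving out each array in turn gave 9 to 18 probe sets with all 3 transgenes, 5 to 19 with dE2F1/dDP and 14 to 45 with miR-11. Moves of over 1.5 times came, with all 3 transgenes, without its replicates 1 and 3 or control replicate 3. With miR-11 they came without its replicates 1 and 2 or control replicate 3, and with dE2F1/dDP without 8 of the 12 arrays. The lowest came without control replicate 3 in each comparison, equalled without replicate 3 of all 3 transgenes and without dE2F1/dDP replicate 1, and the highest without dE2F1/dDP replicate 3, miR-11 replicate 3 and miR-11 replicate 1. With the replicate number as a block the 12 became 7, and the other counts stayed within 1.5 times. Arrays that share a replicate number had deviations correlated above 0.1 in 6 of 18 cases. Pairs of unlike number were not counted, so this cannot show whether the numbers pair arrays. The main fit did not use the replicate numbers. The causes were not tested. Fits of members on the arrays were not run, since probe sets carry no gene names.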
